A study of Mus musculus with 2 samples.

Results

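Inflammatory monocytes are made in the bone marrow, carry the chemokine receptor Ccr2 and the surface antigen Ly6c2, and enter injured tissue along gradients of CC chemokines. In the inflamed pancreas they can turn into macrophages, a change in which Ly6c2 falls and scavenger receptors, lipid-handling genes and, in some cells, the arginase Arg1 appear. Cytosolic DNA sensed by Cgas and Sting1 is known to start type I interferon production, and the interferon receptor then switches on a wide set of antiviral genes.

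The cells described here come from the CP library, a BD Rhapsody single-cell library from the pancreas of mice treated with Cae. A second library, CP+EVs, came from animals given Cae and EVs. The series title names extracellular vesicles induced by exercise, chronic pancreatitis and STING-interferon signalling, while the condition given for both libraries is Cae-induced acute pancreatitis. Each group is 1 library, and strain, age, time of sampling, dose and number of animals were not given in the sources used here. Both groups received Cae, and no untreated pancreas was analysed here.

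A barcode was selected when it held at least 2000 UMIs (unique molecular identifiers, which count captured RNA molecules), at most 25% of them from mitochondrial genes, and at least 5 UMIs and 0.15% of UMIs from Chil3, F13a1, Ccr2 and Ly6c2 together. C1qa, C1qb and C1qc had to stay under 0.3% of UMIs, the neutrophil genes Csf3r, Cxcr2 and Mmp9 under 0.1%, and the collagens Col1a1, Col1a2 and Col3a1 under 1%, with at most 1 UMI each of Cd79a and Cd3e. This took 1243 of the 5286 CP barcodes that passed the limits on UMIs and mitochondrial genes, or 23.5% (exact Clopper-Pearson 95% interval 22.4 to 24.7). The CP library held 13507 barcodes and the series 22352. The selected cells had a median of 7272 UMIs and 2615 genes. The cells were thus selected on their own measured levels of these genes, which are given here as a description.

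Chil3 is a chitinase-like secreted protein (chr3:106147554-106167564, mm10), F13a1 the A chain of coagulation factor XIII (chr13:36867178-37050244), Ccr2 the receptor for Ccl2 (chr9:124101950-124113557) and Ly6c2 a GPI-anchored antigen (chr15:75108158-75111970), whose near copy Ly6c1 may share reads with it. Msr1, a scavenger receptor (chr8:39581685-39642673), and Arg1, which turns arginine into ornithine (chr10:24915221-24927484), are named markers of these cells that took no part in the selection.

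The 4 selection genes did not weigh equally. Ccr2 gave 47.3% of their UMIs and was the largest of the 4 in 850 cells, against 143 cells for Chil3, 127 for F13a1 and 123 for Ly6c2. The UMI of a Ccr2 transcript was seen in 97.2% of the cells, of F13a1 in 82.9%, of Chil3 in 71.2% and of Ly6c2 in 68.4%. All 4 genes had a UMI in 572 cells (46.0%), 3 of them in 402, 2 in 210 and 1 alone in 59. The sum of the 4 ran from 0.151% to 2.53% of a cell's UMIs, with a median of 0.650%, and 443 cells held no C1q UMI.

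**Figure D1:**
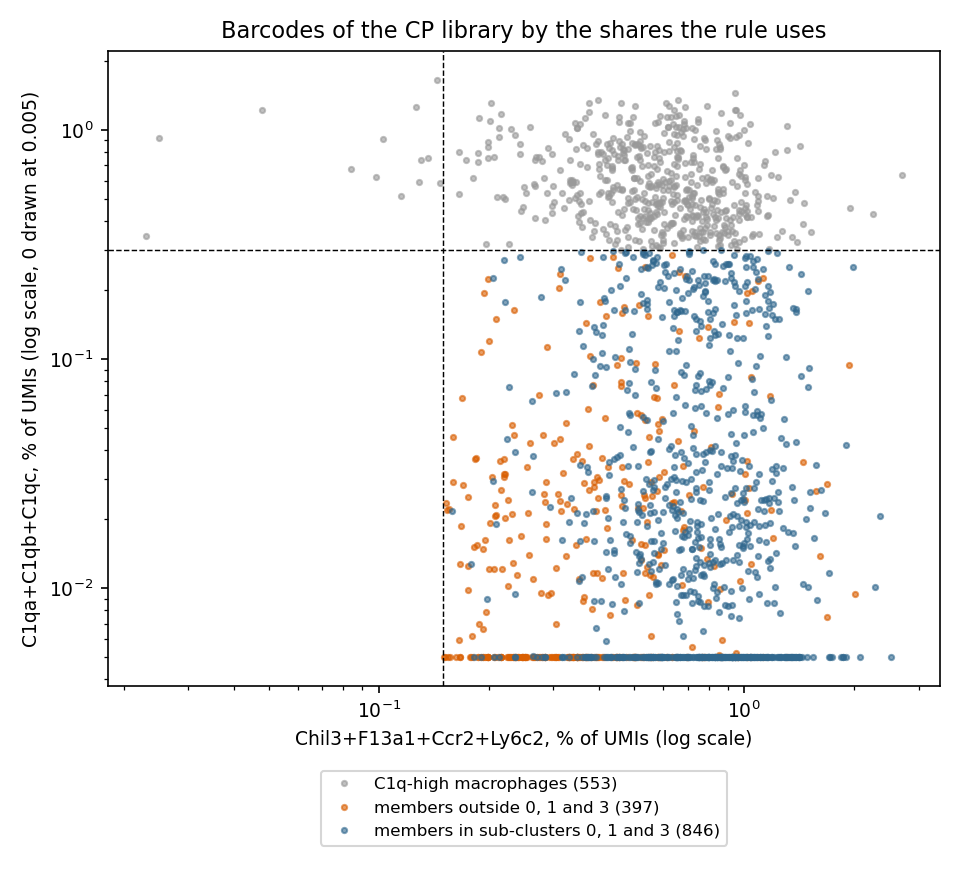
Each point is 1 CP barcode, placed by the percent of its UMIs from Chil3, F13a1, Ccr2 and Ly6c2 (x, log scale) and from C1qa, C1qb and C1qc (y, log scale, with 0 drawn at 0.005); dashed lines mark the limits of the selection. Selected cells of sub-clusters 0, 1 and 3 (846, blue) and of the other sub-clusters (397, orange) lie under the horizontal line, and the 553 C1q-high macrophages (grey) lie above it with no gap between the groups.

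The upper limit on C1q cut through a continuous population. Among C1q-high macrophages (553 CP barcodes at 0.3% C1q or more, under the same other limits), 540 (97.6%) also reached the selection's minimum for the 4 genes. The 100 cells just inside the limit, at 0.2% to 0.3% C1q, held 1341 CPM (a gene's UMIs scaled to 1000000 for the summed UMIs of a set) of Chil3 and 237 CPM of Arg1. The 101 cells just outside it, at 0.3% to 0.4%, held 1049 and 172 CPM. At the lower limit on the 4 genes, the 52 cells just inside (0.15% to 0.20%) held 259 CPM of the macrophage growth factor receptor Csf1r and 4384 CPM of the antibody joining chain Jchain, and the 30 just outside held 139 and 7950 CPM. The sums near that limit were thus low in Csf1r and high in Jchain on both sides of it. A few cells can set such a sum, and the spread of Jchain over these cells was not analysed.

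The name of inflammatory monocytes and monocyte-derived cells was checked against the cells' own genes by clustering them without the selection genes. This gave 12 sub-clusters. Sub-clusters 0 (478 cells), 1 (217) and 3 (151) held 2446, 2359 and 2597 CPM of Csf1r, the Fc receptor Fcgr1 and Msr1 together, and the next, sub-cluster 2, held 805 CPM. A limit of 1500 CPM, set after these values were seen, therefore kept 846 cells, 68.1% of the selected ones (interval 65.4 to 70.6). These 3 are called the Csf1r-rich sub-clusters below. Their level of Lyz2, the myeloid lysozyme, ran from 17015 to 22346 CPM, against 1865 CPM in T cells of the library.

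The remaining 397 cells did not reach that limit, and they are described by their leading genes. Sub-cluster 2 (192 cells) was led by the lectin Cd209a, at 1043 CPM against 24.97 CPM in the other selected cells, with Ffar2, the lectin Clec10a and the class II chaperone H2-DMb2. It carried 9595 CPM of the class II chain H2-Aa and 159 CPM of the dendritic growth factor receptor Flt3, 82.4 CPM of Chil3 and 135 CPM of Msr1, and Ccr2 gave 76.2% of its selection UMIs. Sub-cluster 4 (60 cells, median 14717.5 UMIs) was led by the granule proteases Ctsg and Elane, the peroxidase Mpo (829 CPM) and the mitotic genes Ccnb1 and Bub1.

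The other 145 cells fell into 7 sub-clusters led by genes of other cell types, against the name under which they were selected. Sub-cluster 5 (53 cells) was led by the T cell genes Cd3g (514 against 2.97 CPM), Cd28 and Trac, and Ly6c2 was the largest selection gene in 39 of its cells. Sub-cluster 6 (21 cells) was led by Siglech (2349 CPM) and Ccr9, sub-cluster 7 (18) by the granzymes Gzma (6961 CPM) and Gzmb, and sub-cluster 8 (15) by Clec9a (400 CPM), with Xcr1 among its first 6 genes. Sub-cluster 9 (14 cells) was led by the B lineage coactivator Pou2af1 (804 CPM) and held 50553 CPM of the IgM chain Ighm, and Ly6c2 gave 96.4% of its selection UMIs. Sub-cluster 10 (13 cells) was led by the granule genes Camp, Ngp and Ltf, and Chil3 gave 81.9% of its selection UMIs. Sub-cluster 11 (11 cells) was led by Calca (3313 CPM), Gata3 (2041 CPM) and Il2ra, with the interleukin 33 receptor Il1rl1 among its first 6 genes, and Ccr2 gave 93.01%. Within each of sub-clusters 8, 9, 10 and 11, the same selection gene was the largest of the 4 in every cell.

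**Figure D2:**
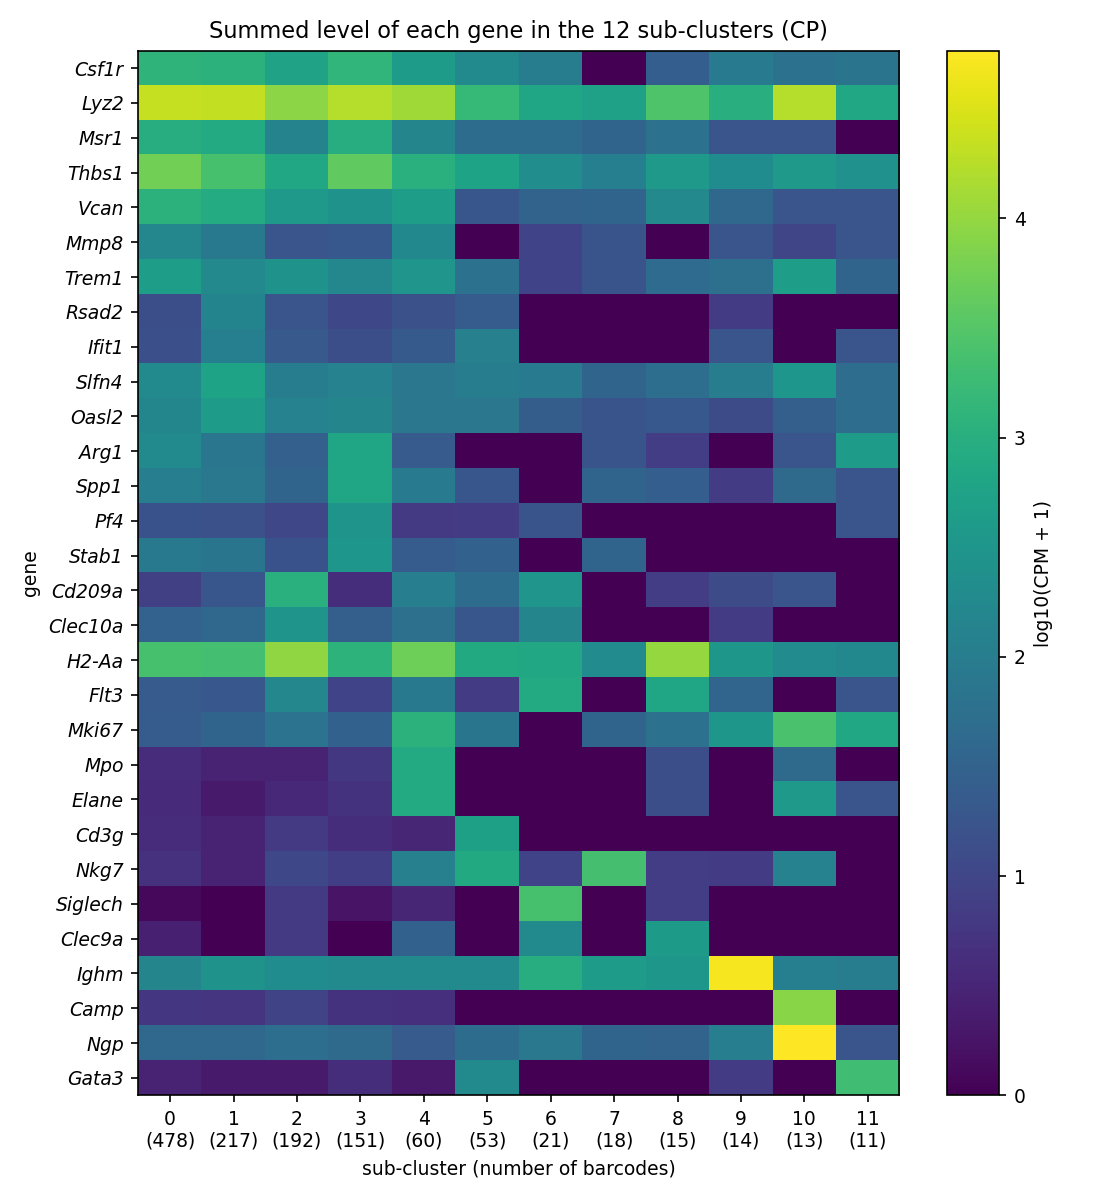
Colour gives log10(CPM + 1) of each gene (rows) summed over the cells of each sub-cluster of the selected CP cells (columns, with the number of cells). Csf1r and Msr1 are bright in sub-clusters 0, 1 and 3, and sub-clusters 5 to 11 each show a gene of another cell type, such as Cd3g in 5, Siglech in 6 and Ngp in 10.

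These few cells set much of what a sum over all selected cells shows. Sub-cluster 10, 1.05% of the cells, held 94.2% of the Ngp UMIs, 95.4% of those of Camp and 49.3% of those of the calprotectin subunit S100a8. Sub-cluster 2 held 89.2% of the Cd209a UMIs, sub-cluster 9 held 87.2% of those of Jchain, and sub-cluster 4 held 75.1% of those of the topoisomerase Top2a. Counts of genes below are therefore given for the Csf1r-rich sub-clusters beside those of all selected cells.

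Free RNA was read from CP cells picked without myeloid genes: 461 T cells (median 4196 UMIs), 128 B cells (4093) and 1406 fibroblasts (10635.5). The T cell set holds 40 of the selected cells and the B cell set 6. Msr1 stood at 52.3 CPM in the T cells and 38.1 CPM in fibroblasts, and Arg1 at 9.15 and 13.01 CPM, far below the levels of the Csf1r-rich cells given next. Ly6c2 and Ccr2 stood at 1091 and 821 CPM in T cells, which can carry these genes themselves. The CP and CP+EVs libraries shared 118 barcodes, 16 of them among the selected cells, and 0 passed the selection in both libraries.

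The 4 selection genes differed among the Csf1r-rich sub-clusters. Ccr2 stood at 3579 CPM (exact Poisson 95% interval 3518 to 3640.4) in sub-cluster 0, 4171 CPM (4071 to 4272) in sub-cluster 1 and 3141 CPM (3042 to 3241) in sub-cluster 3. Chil3 stood at 1809 CPM (1766 to 1853) in sub-cluster 0, 1934 CPM (1867 to 2004) in sub-cluster 1 and 1486 CPM (1419 to 1556) in sub-cluster 3. Intervals here and below cover counting error only, since 1 library gives no spread between animals, and no test was made. Ly6c2 was highest in sub-cluster 1, at 1253 CPM (1199 to 1310), lower in sub-cluster 0, at 622 CPM (597 to 648), and lowest in sub-cluster 3, at 183 CPM (159 to 208). The median cell nonetheless held 2 Ly6c2 UMIs in both sub-clusters 0 and 1, with upper quartiles of 5 and 10 UMIs. In sub-cluster 1, the 11 cells with most Ly6c2 held 40.8% of its UMIs, and in sub-cluster 0 the top 24 held 38.3%. F13a1 was highest in sub-cluster 3, with 2355 CPM (2270 to 2442) in sub-cluster 3, and 1802 CPM (1759 to 1846) and 1845 CPM (1778 to 1912) in sub-clusters 0 and 1, whose intervals overlap. The sub-clusters thus differed in the balance of the very genes that selected them.

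Msr1 was close to even, but it is 1 of the 3 genes whose sum picked these sub-clusters, so its level there is a description of that choice. It stood at 917 CPM (887 to 949) in sub-cluster 0, 809 CPM (765 to 854) in sub-cluster 1 and 949 CPM (896 to 1005) in sub-cluster 3. Sub-cluster 2 had 135 CPM (118 to 154), near the 130 CPM (119 to 142) of neutrophils. A Msr1 UMI was seen in 91.3% of the Csf1r-rich cells and 14.1% of T cells, and after thinning each cell to 2000 UMIs in 72.6% and 6.51%. At least 5 Msr1 UMIs were found in 53.5% of C1q-high macrophages and 40.0% of all selected cells. Cells just inside and just outside the C1q limit held 852 and 818 CPM. Msr1 thus did not set the selected cells apart from C1q-high macrophages.

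Arg1 was uneven. It stood at 638 CPM (594 to 684) in sub-cluster 3, 191 CPM (177 to 206) in sub-cluster 0, 74.6 CPM (61.8 to 89.3) in sub-cluster 1 and 28.1 CPM (20.6 to 37.5) in sub-cluster 2. The C1q-high macrophages stood between sub-clusters 0 and 3, at 327 CPM (312 to 343). Sub-cluster 11, outside the Csf1r-rich sub-clusters, held 435 CPM (284 to 637) of Arg1, from 26 UMIs in 5 of its 11 cells. An Arg1 UMI was seen in 21.7% of all selected cells, and in 12.4% after thinning, against 3.69% and 1.08% of T cells. The 63 cells with the most Arg1, 5% of the selected cells, held 75.4% of its UMIs, with up to 82 in a single cell. At least 5 UMIs were found in 24.5% of the cells of sub-cluster 3, 6.07% of sub-cluster 0 and 2.76% of sub-cluster 1. Any Arg1 UMI was found in 56.3%, 22.4% and 18.4% of the cells of these sub-clusters, and after thinning in 36.4%, 12.8% and 10.6%.

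**Figure D3:**
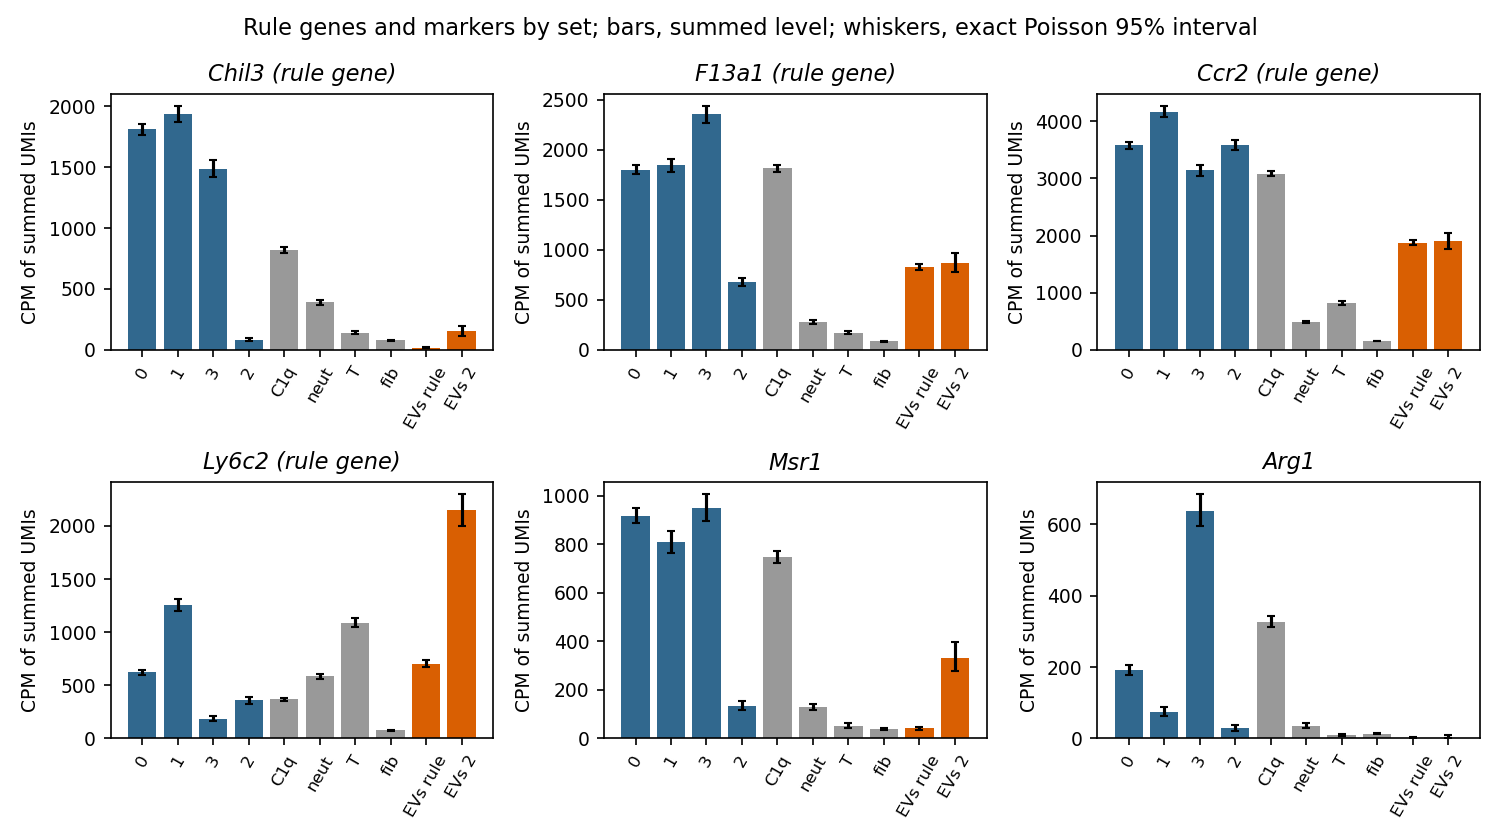
Bars give the summed level in CPM (linear axis from 0) of 6 marker genes in the sub-clusters 0, 1, 3 and 2 of CP (blue), in C1q-high macrophages, neutrophils, T cells and fibroblasts of CP (grey), and in all CP+EVs barcodes passing the selection and their cluster 2 (orange); whiskers are exact Poisson 95% intervals. Arg1 reaches 638 CPM in sub-cluster 3, and Msr1 is close to even over sub-clusters 0, 1 and 3.

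Arg1 and Rsad2 were set against Ly6c2 in single cells. Among the Csf1r-rich cells thinned to 2000 UMIs, Arg1 had a UMI in 42 of 379 cells with a Ly6c2 UMI (11.1%, interval 8.10 to 14.7) and in 96 of 467 without (20.6%, 17.0 to 24.5). Ly6c2 is a selection gene, so cells without it had to pass through the other 3 genes, and cells of 1 library are not replicates. Within sub-cluster 3 the shares were 32.5% (13 of 40, 18.6 to 49.1) and 41.4% (46 of 111, 32.2 to 51.2), and within sub-cluster 0 they were 9.05% (5.62 to 13.6) and 15.2% (11.02 to 20.2). The intervals of both within-cluster pairs overlap, which is not a test of a difference. In both pairs the share was lower with Ly6c2. The antiviral enzyme Rsad2 had a UMI in 29 of 379 cells with Ly6c2 (7.65%, 5.18 to 10.8) and 12 of 467 without (2.57%, 1.33 to 4.45). Within sub-cluster 1, the highest of the 3 in both genes, the shares were 17.8% (11.4 to 25.9) and 6.06% (2.26 to 12.7), within sub-cluster 0 they were 2.71% and 1.56%, and within sub-cluster 3 they were 2 of 40 and 2 of 111 cells. The intervals overlap in all 3, which is not a test of a difference. In all 3 the share was higher with Ly6c2.

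Sub-cluster 0, the largest, was led by Thbs1 and Mmp8. Thbs1, the matrix protein thrombospondin 1, stood at 5625 CPM (5548 to 5702), against 1772 CPM in the other selected cells, and this sub-cluster held 65.3% of the cells' Thbs1 UMIs. A UMI count of 5 or more for Thbs1 was found in 93.7% of its cells. That count was also reached in 84.1% of the cells of sub-cluster 3, 61.3% of sub-cluster 1 and 77.0% of C1q-high macrophages. High Thbs1 was thus not confined to sub-cluster 0. The proteoglycan Vcan stood at 1146 CPM (1112 to 1181), against 847 CPM (802 to 893) in sub-cluster 1 and 277 CPM (248 to 308) in sub-cluster 3. Fibroblasts carry both genes as well, at 1833 CPM of Thbs1 and 782 CPM of Vcan. The 5 summed fibroblast markers lay at 784 CPM in sub-cluster 0, 781 CPM in sub-cluster 1 and 724 CPM in sub-cluster 3, so these markers of free RNA were nearly even.

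Against sub-clusters 1 and 3 together, sub-cluster 0 had 51 of 6163 measured genes higher by 2-fold or more (0.828%) and 80 lower by as much (1.30%). A gene was measured when a set held it at 20 CPM or more and both sets held 20 UMIs or more together. The same genes had formed the sub-clusters, so these counts describe them and test nothing. The highest ratios belonged to the collagenase Mmp8 (162 against 55.3 CPM), the activating receptor Trem1 (467 against 168 CPM), the angiogenic factor Vegfa (172 against 71.6 CPM) and the prostaglandin synthase Ptgs2 (389 against 163 CPM). The interleukin Il1b stood at 2045 CPM (1999.6 to 2092) in sub-cluster 0, 1310 CPM (1255 to 1368) in sub-cluster 1 and 979 CPM (924 to 1036) in sub-cluster 3, and at 531 CPM in T cells. Of 21 inflammatory genes measured, 1 was at least 2-fold higher (Ptgs2) and 0 were lower, with a median log2 ratio of 0.54 against 0.0013 for all genes.

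Of 25 matrix and repair genes, 3 were at least 2-fold higher in sub-cluster 0 (Mmp8, Vegfa and the coagulation factor F10) and 4 lower. Glycolysis and hypoxia genes had 3 of 23 at least 2-fold higher, Vegfa, the lactate exporter Slc16a3 (107 against 49.96 CPM) and the oxygen sensor Egln3, and 0 lower. Genes of non-classical monocytes, which patrol vessels, had 5 of 11 at least 2-fold higher, among them the integrin Itgal (150.5 against 72.6 CPM) and Adgre4 (94.2 against 40.7 CPM). Chemokines had 6 of 13 at least 2-fold lower, including Ccl7 (54.7 against 235 CPM) and Ccl2 (165 against 416 CPM), both ligands of Ccr2. Immediate early and heat shock genes had 5 of 30 at least 2-fold lower, with Hspa1a at 41.1 against 269 CPM. Handling of the tissue is known to raise such genes, and their part in the sub-clusters was not tested.

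Sub-cluster 1 was the highest of the Csf1r-rich sub-clusters in interferon-stimulated genes. Of 49 type I interferon-stimulated genes measured, 32 were at least 2-fold higher than in sub-clusters 0 and 3 together, and 0 were lower, with a median log2 ratio of 1.30. Over all 6170 measured genes, 98 were at least 2-fold higher (1.59%) and 49 lower (0.794%), with a median of -0.02. Rsad2, known as viperin, led with 139 CPM (121 to 159) in sub-cluster 1, 12.7 CPM (9.35 to 16.9) in sub-cluster 0 and 9.78 CPM (5.05 to 17.1) in sub-cluster 3. Ifit1, a sensor of foreign RNA caps, had 114 CPM (98.1 to 132), 13.3 CPM (9.81 to 17.5) and 13.04 CPM (7.45 to 21.2). Next came Ifi206 (118 against 19.9 CPM) and Ifi213 (176 against 40.02 CPM), members of the interferon-inducible DNA sensor family whose near-identical copies may share reads, and Slfn4 (591 against 166 CPM), a schlafen family gene.

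The promoters of these leading genes were searched for a shared motif, since their genes were high together. The motif was GAAA followed, after any 2 bases, by a second GAAA, a core of the element bound by interferon-activated factors. It was sought on both strands in the 250 bases before each start site. It was present in 4 of the 7 leading genes looked up: Rsad2, Ifit1, Ifi206 and Ifi213. It was not present in the windows of Slfn4, Ifi47 or Hspa1a. The windows of Ifi206 and Ifi213 share a near-identical stretch around the motif, so they are not independent matches. The 150 bases before the start site are printed 5′ to 3′ on the gene's strand (RefSeq, GRCm38.p6), with the motif on either strand in capitals, and Slfn4 shown as a window without it. They lie at chr12:26456453-26456602 (minus strand) for Rsad2, chr19:34640739-34640888 (plus) for Ifit1, chr1:173491319-173491468 (minus) for Ifi206, chr1:173599273-173599422 (minus) for Ifi213 and chr11:83175036-83175185 (plus) for Slfn4.
Rsad2: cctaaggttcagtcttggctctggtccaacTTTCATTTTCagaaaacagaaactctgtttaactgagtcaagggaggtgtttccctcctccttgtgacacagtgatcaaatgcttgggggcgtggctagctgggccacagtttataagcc
Ifit1: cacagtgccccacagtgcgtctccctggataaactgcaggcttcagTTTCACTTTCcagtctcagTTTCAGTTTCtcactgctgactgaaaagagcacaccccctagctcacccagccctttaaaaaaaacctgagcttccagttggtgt
Ifi206: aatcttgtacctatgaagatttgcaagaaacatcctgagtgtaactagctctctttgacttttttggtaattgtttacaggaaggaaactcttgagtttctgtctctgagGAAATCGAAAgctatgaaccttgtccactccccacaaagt
Ifi213: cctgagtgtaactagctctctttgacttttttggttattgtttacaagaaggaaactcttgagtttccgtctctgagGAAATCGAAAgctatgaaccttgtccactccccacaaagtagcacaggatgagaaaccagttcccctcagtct
Slfn4: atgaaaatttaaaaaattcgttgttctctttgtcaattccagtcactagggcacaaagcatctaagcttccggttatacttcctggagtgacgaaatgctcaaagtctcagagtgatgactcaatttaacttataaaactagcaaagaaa

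In Ifit1 the motif occurs at 2 places, which start 104 and 85 bases before the start site, both in the reverse orientation. In Rsad2 it starts 120 bases before, in Ifi206 40 and in Ifi213 73. Over all 32851 RefSeq promoter windows of the same length, 2.98% held the motif, or 3.46% of 27025 genes. Of the 40 measured type I interferon-stimulated genes with a window, 16 held it (40.0%), and of the 25 with a window among those at least 2-fold higher in sub-cluster 1, 11 held it (44.0%). These are matches of letters and show no binding.

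All measured genes of the STING pathway were followed across the Csf1r-rich sub-clusters. The sensor Cgas stood at 75.2 CPM (62.4 to 90.0) in sub-cluster 1, 54.7 CPM (47.4 to 62.7) in sub-cluster 0 and 76.6 CPM (61.9 to 93.7) in sub-cluster 3. Sting1, the adaptor, stood at 142 CPM (124 to 162), 124 CPM (113 to 136) and 98.6 CPM (81.8 to 118) in the same order. The kinases Tbk1 (96.6, 86.6 and 88.8 CPM) and Ikbke (65.8, 72.8 and 59.5 CPM) were close to even, and stood at 66.6 and 52.3 CPM in T cells. The factor Irf3 was low, at 16.3, 21.9 and 27.7 CPM, below its 38.8 CPM in B cells. Enpp1, which degrades the second messenger of this pathway, was at 11.3, 5.41 and 25.3 CPM, below its 84.6 CPM in B cells.

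The pathway's interferon-inducible genes differed more. Being inducible by interferon, they are not a result separate from that of the type I interferon-stimulated genes above. Irf7 stood at 72.1 CPM (59.5 to 86.5) in sub-cluster 1, 22.7 CPM (18.1 to 28.1) in sub-cluster 0 and 17.1 CPM (10.6 to 26.2) in sub-cluster 3. The signal transducer Stat2 (181 against 57.5 CPM), the sensors Ifi203, Ifi204 (740 against 339 CPM), Ifi205 and Mndal, and the nucleic acid sensor Zbp1 (167 against 80.04 CPM) were likewise higher than in sub-clusters 0 and 3 together. Of the 19 measured pathway genes, 8 were at least 2-fold higher in sub-cluster 1, these and Irf7 among them, and 0 were lower. The others, in sub-cluster 1 against the other 2, were Ifi207 (792 against 487 CPM), Irf9 (232 against 173 CPM), Irf5 (105 against 70.9 CPM), Aim2 (45.1 against 32.5 CPM) and the receptor chains Ifnar1 (129 against 162 CPM) and Ifnar2 (122 against 119 CPM). Sub-cluster 3, set against sub-clusters 0 and 1, had 1 of 20 pathway genes at least 2-fold higher (Enpp1) and 1 lower (Irf7). The interferon Ifnb1 and the nuclease Trex1 were listed at 0 UMIs over all barcodes of both libraries. A gene that no cell shows may be one the counting does not cover, so neither is read as a level.

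Interferon gamma genes and stress genes were also higher in sub-cluster 1. Of 19 interferon gamma genes, 9 were at least 2-fold higher and 0 lower, among them the chemokines Cxcl9 (65.2 against 2.64 CPM) and Cxcl10 (64.6 against 19.1 CPM) and the guanylate-binding protein Gbp2 (211 against 87.8 CPM). Cxcl9 stood at 37.7 CPM in C1q-high macrophages and 26.2 CPM in fibroblasts. Of 30 immediate early and heat shock genes, 5 were at least 2-fold higher and 0 lower, with Hspa1a at 313 against 83.7 CPM and Atf3 at 988 against 425 CPM. The part of handling in this sub-cluster was not tested. Of 25 matrix and repair genes, 5 were at least 2-fold lower and 0 higher, among them the transglutaminase Tgm2 at 94.7 against 264 CPM.

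Other cells of the library reached levels near those of sub-cluster 1. Rsad2 stood at 165 CPM (152 to 178) and Ifit1 at 109.5 CPM (99.2 to 121) in neutrophils, and Ifit1 at 87.1 CPM in fibroblasts. Ifi203 stood at 414 CPM in T cells. Sub-clusters 0 and 3 lay below these levels.

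**Figure D4:**
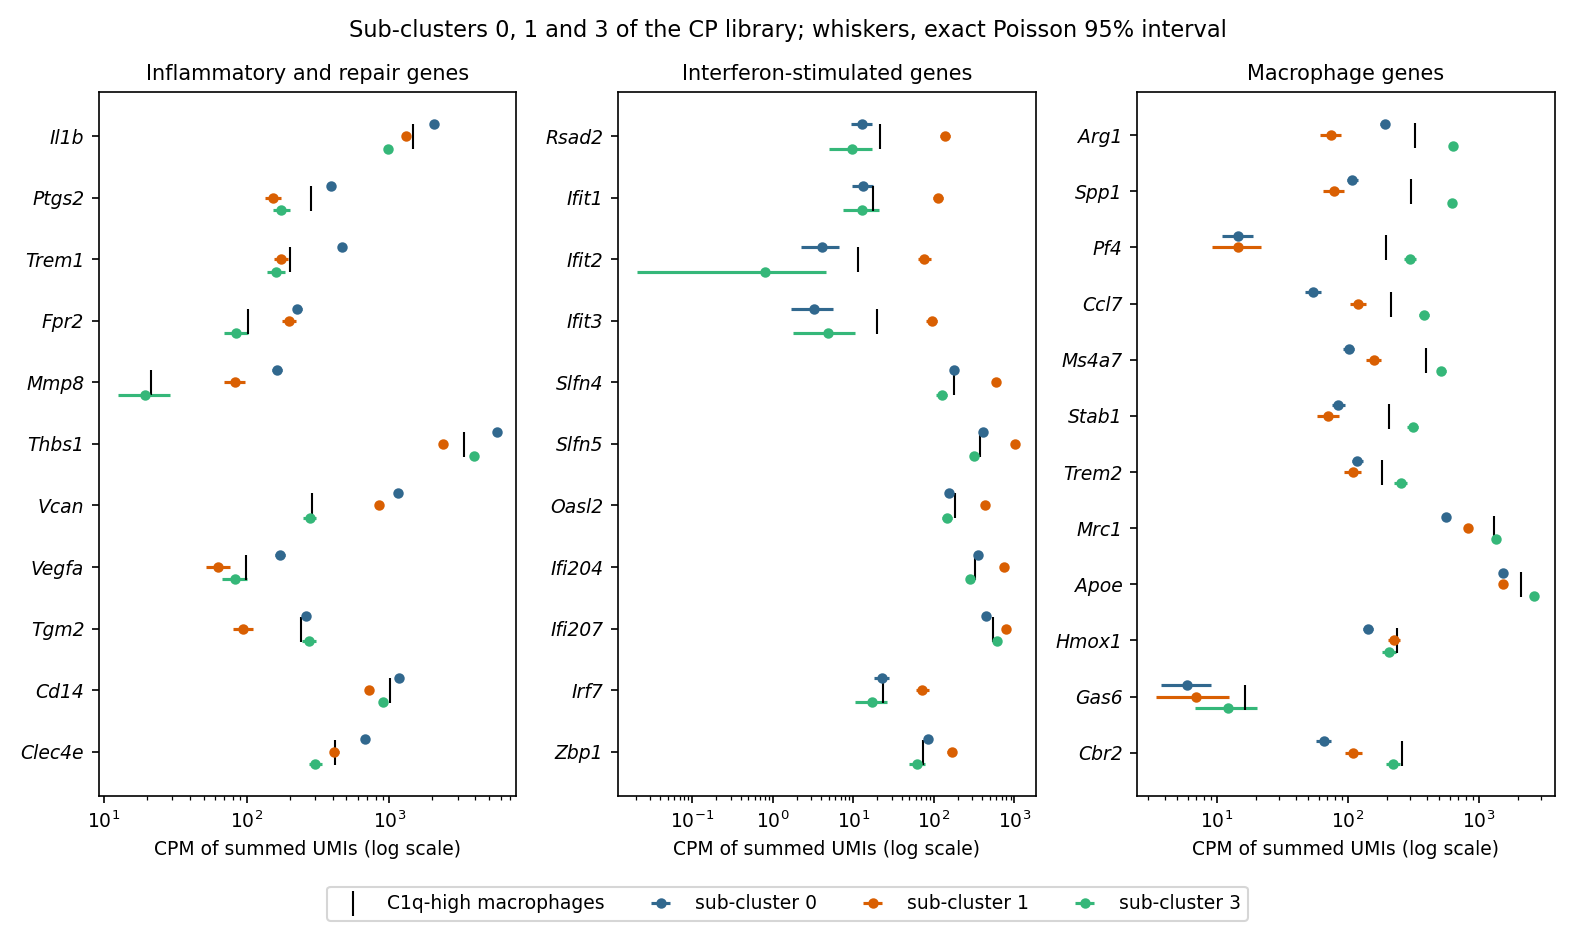
Points give the summed level in CPM (log scale) of inflammatory and repair, interferon-stimulated and macrophage genes in sub-clusters 0 (blue), 1 (orange) and 3 (green) of CP, with exact Poisson 95% intervals as whiskers; black ticks mark the C1q-high macrophages. Rsad2 lies at 139 CPM in sub-cluster 1 and near 10 CPM in the others, while Pf4, Spp1 and Arg1 are highest in sub-cluster 3.

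Sub-cluster 3 carried less monocyte RNA and more macrophage RNA. Against sub-clusters 0 and 1 together, 6 of 14 monocyte markers (the selection genes left out) were at least 2-fold lower and 0 higher, with a median log2 ratio of -0.89. Over all 6237 measured genes, 142 were at least 2-fold higher (2.28%) and 138 lower (2.21%), with a median of 0.03. Plac8, at 758 CPM in fibroblasts, stood at 546 against 1754 CPM, and Vcan at 277 against 1056 CPM. Class II genes had 3 of 10 at least 2-fold lower and 0 higher, with H2-Ab1 at 1058 against 2212 CPM.

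Some macrophage genes were higher in sub-cluster 3. Of 22 genes of monocyte-derived macrophages, 5 were at least 2-fold higher and 0 lower: Arg1, the secreted phosphoprotein Spp1, the lipid receptor Trem2 (254 against 116 CPM), the mannose receptor Mrc1 (1366 against 644 CPM) and Ms4a7 (518 against 119 CPM). Spp1 stood at 629 CPM (585 to 675), against 109 CPM (98.4 to 120) in sub-cluster 0 and 78.4 CPM (65.2 to 93.4) in sub-cluster 1. Of its UMIs over all selected cells, 53.3% lay in sub-cluster 3, and the 8 cells with most of it held 63.6% of the UMIs there. Few cells thus set the level of Spp1.

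Genes of resident macrophages were higher too, with 4 of 9 at least 2-fold higher and 0 lower. The platelet factor Pf4 stood at 297 CPM (268 to 330), against 14.6 CPM (10.98 to 19.1) in sub-cluster 0 and 14.4 CPM (9.14 to 21.6) in sub-cluster 1. The scavenger receptors Stab1 (314 against 80.5 CPM) and Cd163 (74.2 against 22.3 CPM) and the carbonyl reductase Cbr2 (222 against 79.02 CPM) made up the count. Pf4, Stab1, Ms4a7, Spp1 and Arg1 were higher in sub-cluster 3 than in C1q-high macrophages, which had 196, 208, 398, 307 and 327 CPM. The cells of sub-cluster 3 were nonetheless selected for little C1q. All of these were among the genes that led sub-cluster 3 over the other selected cells. Cbr2 (222 against 258 CPM) and the Fc receptor-like Fcrls (151 against 193 CPM) were lower than in C1q-high macrophages. Among chemokines, 4 of 14 were at least 2-fold higher than in sub-clusters 0 and 1, led after Pf4 by Ccl7 (384 against 74.3 CPM). Another 2 were lower by as much.

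**Figure D5:**
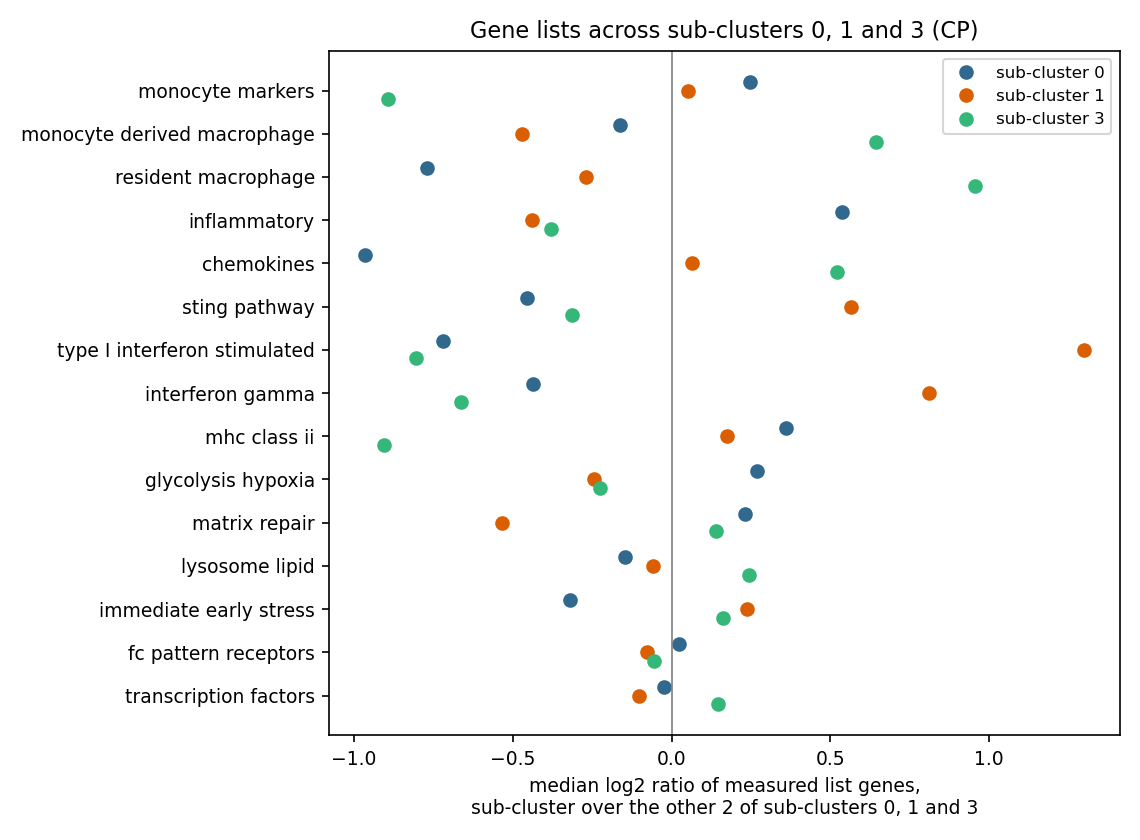
Points give the median log2 ratio (linear axis) of the measured genes of each list in 1 sub-cluster over the other 2 of sub-clusters 0, 1 and 3. The interferon lists lie furthest up in sub-cluster 1 (1.30 for type I genes), and sub-cluster 3 has its highest value for resident macrophage genes (0.96) and its lowest for class II genes (-0.91) and monocyte markers (-0.89).

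Set against the C1q-high macrophages of the same library, the Csf1r-rich cells were close to them and differed in monocyte and cell cycle genes. Sub-cluster 4, which held 75.1% of the selected cells' Top2a UMIs, is not among the Csf1r-rich cells, and the comparison set was not divided this way. Of 6194 measured genes, 33 were at least 2-fold higher (0.533%) and 98 lower (1.58%). Mmp8 (116 against 21.4 CPM; 5.42-fold, 4.43 to 6.68), Vcan (909 against 288 CPM; 3.16-fold, 2.99 to 3.35) and Plac8 (1526 against 679 CPM; 2.25-fold, 2.16 to 2.34) were among the highest. Of 14 monocyte markers, 6 were at least 2-fold higher and 0 lower, with a median log2 ratio of 0.51 against 0.0024 for all genes. The limit on C1q chose both sets, so genes that follow C1q had to differ.

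Cell cycle genes were lower in the Csf1r-rich cells. Of 18 measured, 16 were at least 2-fold lower than in C1q-high macrophages and 0 higher, with a median log2 ratio of -2.31. Top2a stood at 20.6 against 149 CPM and the proliferation antigen Mki67 at 27.01 against 133 CPM. Over all 1243 selected cells, which include the dividing sub-cluster 4, 0 of 20 were at least 2-fold lower or higher, with a median of 0.10. The comparison set was not divided into sub-clusters, and how many of its cells divide was not analysed here.

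Of 9 alternative activation genes, 2 were at least 2-fold lower in the Csf1r-rich cells and 0 higher, and of 10 resident macrophage genes, 3 were lower and 0 higher. Retnla, a resistin-like secreted protein, stood at 23.6 CPM in the Csf1r-rich cells and 668 CPM in C1q-high macrophages (28.3-fold lower, 24.0 to 33.4). It stood at 44.7 CPM in T cells, so its level in the Csf1r-rich cells was within reach of free RNA. The lectin Mgl2 (9.82 against 119 CPM), the Fc receptor-like Fcrls (38.4 against 193 CPM), the lipid scavenger receptor Cd36 (25.01 against 104 CPM) and Pf4 (67.8 against 196 CPM) were next. Type I interferon genes differed less, with 1 of 44 at least 2-fold higher (Ifit1, 37.9 against 17.7 CPM), 0 lower and a median log2 ratio of 0.35. Over all 1243 selected cells, Retnla was 4.39-fold lower than in C1q-high macrophages, at 152 CPM, and Mgl2 stood at 100 CPM. Fcrls, Cd36 and Pf4 stood at 51.8, 25.1 and 46.9 CPM there. Sub-clusters 2 and 4 held 46.2% and 42.7% of the Retnla UMIs of all selected cells. The comparison set was not divided in this way.

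Over all 1243 selected cells, 130 of 6306 genes were at least 2-fold higher than in C1q-high macrophages (2.06%) and 51 lower (0.809%). The 4 highest were Camp (100 against 3.93 CPM), Ngp (714 against 41.5 CPM), Cd209a (193 against 14.9 CPM) and the lactoferrin Ltf (145 against 11.4 CPM), genes of sub-clusters 10 and 2. Higher genes made up 71.8% of the calls, and 25.2% for the Csf1r-rich cells alone. Leaving out the other sub-clusters thus turned the balance of calls from mostly higher to mostly lower. Of the 43 type I interferon genes measured, 1 was at least 2-fold higher (Ifitm1) and 0 lower, with a median log2 ratio of 0.17. Of the 14 monocyte markers, 5 were at least 2-fold higher and 0 lower, and of the 10 resident macrophage genes, 6 were at least 2-fold lower and 0 higher.

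Against the 1098 neutrophils of the library (median 2690.5 UMIs), the selected cells carried more class II and less inflammatory RNA. Of 6506 measured genes, 1943 were at least 2-fold higher (29.9%) and 784 lower (12.1%). Class II genes had 10 of 11 higher and 1 lower, with the transactivator Ciita at 114 against 14.96 CPM. For the Csf1r-rich cells, a comparison added after the values were seen, 1764 of 6373 genes were at least 2-fold higher (27.7%) and 796 lower (12.5%), class II genes had 8 of 9 higher and 0 lower, and Ciita stood at 65.2 CPM. Inflammatory genes had 1 of 23 higher and 17 lower, and 2 and 17 for the Csf1r-rich cells. Il1b stood at 1456 CPM (1432 to 1480) in the selected cells and 10684 CPM in neutrophils, Ptgs2 at 270 against 2127 CPM and Trem1 at 303 against 2815 CPM. The lowest ratios were those of Il1f9, an interleukin 1 family cytokine (8.97 against 1033 CPM; 115-fold lower, 93.4 to 144), Amer2, and the stefin Stfa2l1. The Mmp9, Csf3r and Cxcr2 limits chose both sets, and depth differed between them, and the part of depth was not tested.

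Calprotectin levels lay near those of lymphocyte sets. S100a8 stood at 701 CPM (674 to 728) in sub-cluster 0, 460 CPM (428 to 495) in sub-cluster 1 and 308 CPM (278 to 341) in sub-cluster 3, and at 16990.4 CPM in neutrophils. It stood at 691 CPM in T cells, 320 CPM in fibroblasts and 758 CPM in B cells, a set that also held 574 CPM of Mpo. The part of free RNA in these levels was not tested. Saa3, a serum amyloid, stood at 880, 652 and 535 CPM in these sub-clusters and at 3377 CPM in fibroblasts. Over the Csf1r-rich cells its level was 0.225 of that in fibroblasts, against 0.0367 for Dcn and 0.0314 for Sparc, both fibroblast markers. The source of Saa3 was not tested.

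The same limits passed 368 of 5479 CP+EVs barcodes, or 6.72% (interval 6.07 to 7.41), against 23.5% in CP. Most of these barcodes differed from the Csf1r-rich CP cells in their genes. Of their 6 clusters, 0 reached 1500 CPM of Csf1r, Fcgr1 and Msr1 together, a limit that had been set on CP values. The highest was cluster 2 (54 barcodes) at 1224 CPM, above the 805 CPM of sub-cluster 2 of CP. The largest, cluster 0 (189 barcodes), was led by the lysozyme Lyz1 (7897 CPM), which may share reads with Lyz2, and the lipase Lpl, and carried 13533 CPM of Retnla, 1.06 CPM of Chil3, 1.58 CPM of Msr1 and 23.8 CPM of Ly6c2. Cluster 1 (67 barcodes) was led by the natural killer receptor Klra8, cluster 3 (24) by mitotic genes such as Nusap1, cluster 4 (17) by Kcnq1ot1 with the acinar genes Tff2, Gp2 and Cpb1, and cluster 5 (17) by Eaf2 and Derl3.

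Cluster 2 of CP+EVs was nearest to the CP cells in its monocyte genes. It held 2145 CPM (2000.4 to 2298) of Ly6c2, 153 CPM (116 to 198) of Chil3, 332 CPM (277 to 396) of Msr1, 2433 CPM of Plac8 and 2003 CPM (1863 to 2151) of Thbs1, and Arg1 was at 0 UMIs. It also held 301 CPM of Siglech and 267 CPM of Ccr9, the genes that led sub-cluster 6 of CP, though Siglech had a UMI in 3 of the 54 barcodes and Msr1 in 30, and 0 had both. Rsad2 stood there at 119 CPM (86.6 to 159) and Sting1 at 121 CPM (88.9 to 162).

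Side by side, CP+EVs barcodes and selected CP cells had 420 of 6481 genes at least 2-fold higher in CP+EVs (6.48%) and 531 lower (8.19%). Class II genes had 7 of 11 higher and 0 lower, type I interferon genes 0 of 43 higher and 14 lower (median log2 ratio -0.68 against -0.20 for all genes), and Fc and pattern receptors 1 of 22 higher and 13 lower. Against the Csf1r-rich cells alone, 571 of 6466 genes were at least 2-fold higher in CP+EVs (8.83%) and 637 lower (9.85%), with class II genes 8 of 11 higher and type I interferon genes 18 of 44 lower. Arg1 stood at 1.55 CPM (0.504 to 3.62) in CP+EVs and 172 CPM (164 to 180) in CP, Chil3 at 18.9 CPM (14.5 to 24.3) and 1349 CPM (1326 to 1372), and Msr1 at 41.0 CPM (34.3 to 48.6) and 628 CPM (612 to 643). Retnla went the other way, at 9762 CPM in CP+EVs and 152 CPM in CP, or 23.6 CPM in the Csf1r-rich cells. In those cells Arg1 stood at 247 CPM, Chil3 at 1779 CPM and Msr1 at 897 CPM. Acinar genes had 6 of 6 higher, at 14636 and 65.1 CPM summed, and neutrophil markers 1 of 13 higher and 11 lower. Treatment, library, depth, free RNA and the kinds of cell that passed cannot be told apart with 1 library a group.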

How the data were processed

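Summed UMIs of 1243 selected CP cells were compared with other cells of the same library and with CP+EVs barcodes that met the same limits. The deposited values are raw UMI counts per gene and barcode for 31253 genes, as the values in the deposited matrices show. Per the submitters' processing notes, CASAVA 1.8, UMI-tools, Seurat and the mm10 build were used, with no role given. The sources used here name no aligner, annotation or cell calling method. CP held 51652425 UMIs and CP+EVs 38532775, over barcodes of 501 UMIs or more.

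Levels are CPM of summed counts with exact Poisson 95% intervals, shares have exact Clopper-Pearson intervals, and both cover counting error only. Folds carry exact conditional intervals, and log2 ratios add 0.5 counts. With 1 library a group no test was made. Selected cells were clustered without the selection genes (2000 variable genes, 20 components, 15 neighbours, resolution 0.5) with scanpy 1.11.5 and leidenalg 0.10.2. For shares, cells were also thinned to 2000 UMIs. No doublet caller was run. The ratio step was tested on simulated data. Named genes were those of highest or lowest ratio at 100 CPM in a set and 100 UMIs in all, plus members of the lists, and some genes that this rule names are not reported here. Genes that chose either set were left out of the lists. Neutrophils, macrophages, T and B cells and fibroblasts were picked by marker UMIs. The cells, lists and comparisons were chosen with earlier results of these data known, and the limit of 1500 CPM was chosen after seeing the data. Gene positions are GENCODE vM21 on mm10 and promoters RefSeq. Alternatives varied the selection limits, depth, scaling, gene filter and clustering.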

Additional observations from a re-analysis of the deposited data

How the results depend on the processing

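The selected share of CP barcodes was 23.5%, and it was 17.7% with a minimum of 1000 UMIs, 28.2% with 3000, 20.4% with 0.30% of UMIs from the selection genes, 19.6% with C1q under 0.1% and 27.6% with C1q under 0.5%. Against C1q-high macrophages, the counts of 130 genes higher and 51 lower became 34 and 17 for genes at 100 CPM and 100 UMIs, and 798 and 342 with no CPM floor and 10 UMIs. They became 33 and 98 for sub-clusters 0, 1 and 3, an alternative chosen after seeing the data. With selected cells under 0.1% C1q and comparison cells from 0.6%, 115 genes were lower, and the higher share of calls was 59.6% in place of 71.8%. With 0.30% from the selection genes it was 60.5%. The median log2 ratio of type I interferon genes was 0.35 for sub-clusters 0, 1 and 3 in place of 0.17. The share of cells with an Arg1 UMI was 12.4% after thinning and 27.4% in sub-clusters 0, 1 and 3, in place of 21.7%. Median-of-ratios scaling gave 128 genes higher and 55 lower, per-cell means 156 and 41, and leaving out the 5% of cells with most UMIs 116 and 52. The clustering gave 10 sub-clusters at resolution 0.3 and 17 at 1.0, and 13 with the selection genes kept, and from 67.7% to 68.1% of the cells lay in sub-clusters past the 1500 CPM limit. The largest piece of a sub-cluster under another clustering held 27.6% of sub-cluster 0, 66.4% of sub-cluster 1 and 63.5% of sub-cluster 2 at resolution 1.0, 70.2% of sub-cluster 3 at 0.3, and 64.2% of sub-cluster 0 with the selection genes kept, so their boundaries depend on these choices. No paired analysis was possible because each group has 1 library. Depth limits genes near 3 counts, and free RNA limits levels near those of T cells, B cells or fibroblasts.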
